A study of Mus musculus with 6 samples.

Results

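Gene expression was compared between pre-B cells that overexpressed the microRNA miR-26a and the same cells with an empty control vector. The comparison used 4 of the 6 arrays of the series, 2 for miR-26a and 2 for the control vector, chosen by their labels, and 10556 genes were tested. All arrays were of one mouse pre-B cell line, grown from bone marrow lacking the adaptor proteins SLP-65 and LAT. Each pool was kept in an excess of the growth factor IL-7, carried a retroviral vector and had been selected with puromycin. The miR-26a construct encodes the human precursor hsa-miR-26a-2, and the control is the vector alone. The arrays labelled replicate 1 were taken as experiment 1 and those labelled replicate 2 as experiment 2, and the study describes the experiments as independent, with separately generated cells of this line. The remaining 2 arrays, of cells with a sponge transcript that takes up miR-26, entered the fit and are used only where stated. Everything here therefore concerns one cell line, high levels of one miRNA and cells that were not deprived of IL-7.

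A miRNA guides the silencing complex to transcripts that pair with its seed, bases 2 to 8 from its 5′ end, and such transcripts are usually less stable. Pre-B cells carry the pre-B cell receptor, divide while IL-7 is present and stop dividing to recombine their immunoglobulin light chain genes. Signals through phosphoinositide 3-kinase (PI3K) and AKT keep FOXO transcription factors out of the nucleus, and FOXO factors drive the recombinase genes in these cells. A transcript that changes with the miRNA may be a direct target or may follow from other changes, and the arrays do not separate these. The mature sequences below are those of RefSeq (GRCm38.p6), with the seed in capitals, and are shown because members of the family share it.
mmu-miR-26a-5p: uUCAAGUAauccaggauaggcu
mmu-miR-26b-5p: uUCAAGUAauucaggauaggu
The mouse genome holds the first of these at 2 loci, on chromosome 9 (119031811 to 119031832) and chromosome 10 (126995543 to 126995564).

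Both directions were well filled. Of 19558 probes tested, miR-26a lowered 1052 (5.38%) and raised 1028 (5.26%), each with an adjusted p under 0.05 (limma, Benjamini-Hochberg adjustment over all probes tested). With 1 probe per gene, the brightest, 645 of the 10556 genes (6.11%) were lower and 626 (5.93%) were higher, and the median change over all genes was 0.02 on the log2 scale. Every called probe changed the same way in both experiments, which the calling favours, since disagreement between the experiments enters the error of the fit. Falls reached further than rises, as 65 genes fell and 20 genes rose by more than 1 on the log2 scale. The count rests on the filter and on the arrays that supply the error, and it was smaller with either control array left out. With 1 array of a group left out, the other array of that group is fitted exactly and the error comes from the remaining groups. Counts with 1 array left out, here and below, therefore do not show how much a result rests on that array. When all 55681 probes were fitted, 0 passed in limma, with 3156 lower and 3347 higher at an unadjusted p under 0.05.

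**Figure D1:**
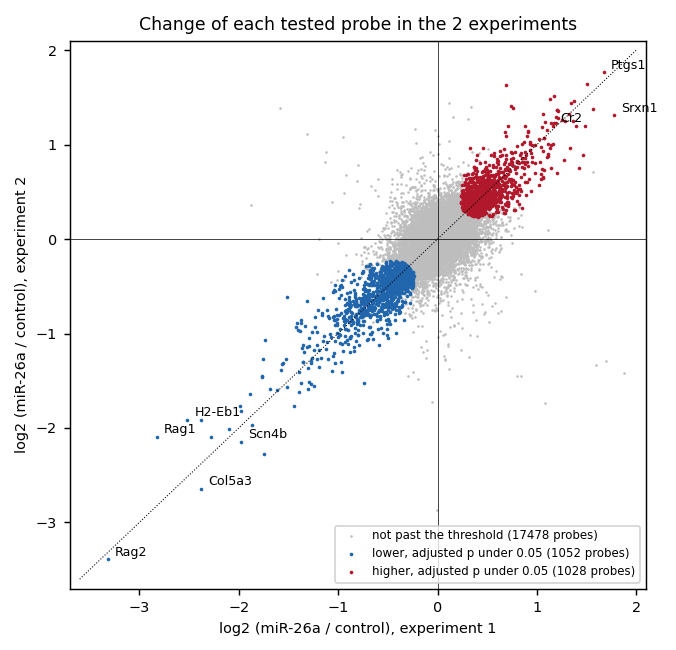
Each point is 1 of the 19558 probes tested, with its log2 ratio of miR-26a to control in experiment 1 (horizontal axis) against that in experiment 2 (vertical axis). Blue marks the 1052 probes called lower and red the 1028 called higher, which lie along the dotted line of equal change, with Rag2 at the lower end and Ptgs1 at the upper end.

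The values in all sentences below are log2 of the quantile-normalized array intensity, and a change is the mean difference between miR-26a and control over the 2 experiments. The replicates of a group differed by a median of 0.10 (control) and 0.12 (miR-26a) across the probes tested, and the median standard error of a change was 0.08. Only 2 arrays per group limit the precision. The gene lists below were chosen with earlier results of these data known, so their shares of calls are descriptions and no separate evidence. Between 28908 and 29673 spots of the 4 arrays were well above background and 0 were saturated. In a pool of cells, a lower signal in each cell cannot be told apart from fewer cells with a normal signal. The filter keeps probes with a processed signal above 50 on the 4 arrays, so Ggta1 (dimmest signal 50.2) was tested and Cntnap1 (dimmest signal 49.96) was not.

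The arrays carried the transcripts of pre-B cells. Of 13 pre-B lineage markers on the array, 12 were tested and 1 was called lower (8.33%, near the 6.11% of all genes). It was Il2ra, which fell by 0.74 (SE 0.10, adjusted p = 0.0126 from limma). The median change of the 12 was -0.07. Summed over this list, the linear intensity was 707000 and 754000 with control and 685000 and 742000 with miR-26a. The groups overlapped, and the sum was lower with miR-26a within each experiment, as were 10 of the 12 changes. Of 17 myeloid markers, 6 were well above background on all 4 arrays, so some transcripts of this list were present in both groups. A further 9 were above background on no array, among them Lyz2, Mpo, S100a8 and S100a9. The summed level of the list was 56100 and 67900 with control and 58700 and 65100 with miR-26a. One myeloid marker was called, Cd68, a lysosomal glycoprotein, which rose by 0.33 (adjusted p = 0.0361 from limma), and 0 were called with any 1 array left out. This 1 rise among 6 tested myeloid markers is 16.7%, beside 5.93% of all genes. A second probe of Itgam was called lower (-0.83, adjusted p = 0.00515), while its brighter probe, at 0.06, did not pass. Among the tested markers of T and NK cells (4), plasma cells (4) and the erythroid and megakaryocytic lineages (1), 0 were called by limma, and the unadjusted p was under 0.05 for 1 in each of these lists. The 9 stromal markers were all too dim to be tested. Cd5, on the T and NK list, was too dim for the filter and so not tested. Its values, given after they were seen, were 6.64 and 6.20 with control and 4.82 and 4.05 with miR-26a. The summed level of the T and NK list was 15600 and 16800 with control and 13400 and 14300 with miR-26a, and that of the erythroid list was 168 and 166 against 268 and 189. Their part in the results below was not tested. The probe of Blnk, the gene of SLP-65, gave bright signals of 15.37 and 15.60 with control and 14.88 and 15.09 with miR-26a. Whether it lies in the deleted part is not given in the sources used here, so it does not check the genotype, and the same holds for Lat (10.12 and 10.28 against 10.17 and 10.10).

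Both transcripts of the recombinase fell, and that of Rag2 had the largest fall among the genes tested. Rag2, which with Rag1 cuts DNA at antigen receptor gene segments, had signals of 9.37 and 9.34 with control and 6.05 and 5.95 with miR-26a, a change of -3.36 (SE 0.10, adjusted p = 0.00137 from limma). Rag1 went from 9.39 and 9.71 to 6.56 and 7.61, a change of -2.46 (SE 0.19, adjusted p = 0.00385). Dntt, whose polymerase adds bases without a template at the joints, went from 12.88 and 12.76 to 11.62 and 11.78 and fell by 1.12 (SE 0.09, adjusted p = 0.00385). In all of them the miR-26a arrays lay below the control arrays, and the spread between the Rag1 arrays of miR-26a was wide. Of the 12 genes of the V(D)J recombination list, 3 fell and 1 rose, beside 6.11% falls and 5.93% rises over all genes. The 1 rise is 8.33% of the list, near the share of all genes, and the list median was -0.12. The gene that rose was Xrcc5, the Ku80 subunit that binds broken DNA ends, by 0.36 (adjusted p = 0.0277). The other end-joining genes tested, such as Lig4 (-0.08) and Xrcc4 (-0.18), did not pass. With any 1 array left out, 3 falls and 0 rises were called in this list.

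**Figure D2:**
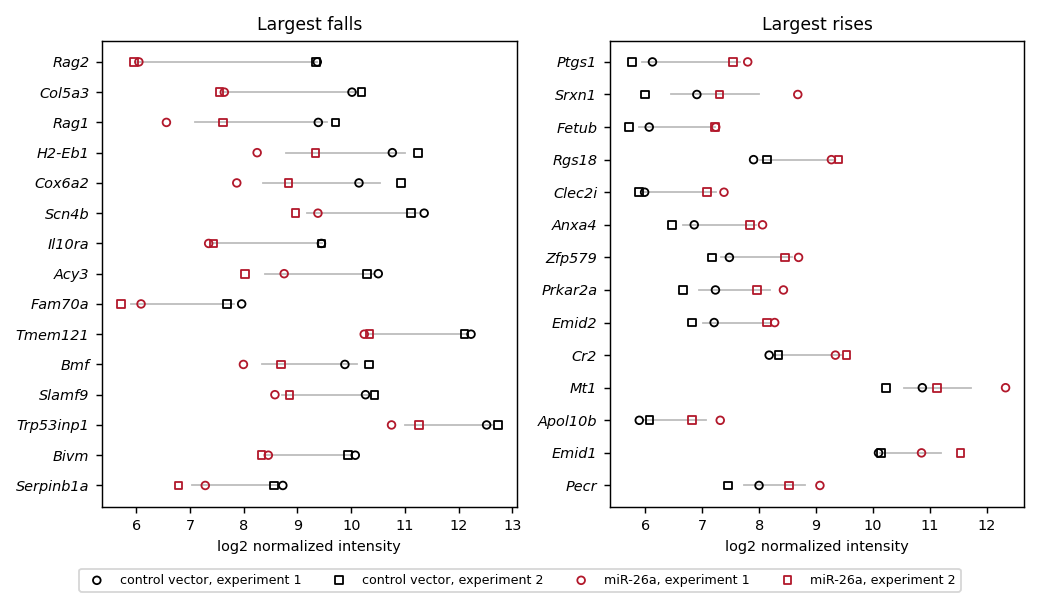
The genes with the 15 largest falls (left) and 14 of the 15 largest rises (right), with the log2 normalized intensity of each array on the horizontal axis. Circles are experiment 1, squares experiment 2, black the control vector and red miR-26a, and grey lines join the group means. For each of the 29 genes both miR-26a arrays lie on the same side of both control arrays, by the least for Mt1 and Srxn1 among the rises.

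The remaining large falls were mixed in function. Col5a3, a chain of fibrillar type V collagen, had signals of 10.01 and 10.19 with control and 7.64 and 7.55 with miR-26a, a change of -2.51 (SE 0.23). Cox6a2, a cytochrome c oxidase subunit best known from muscle, fell from 10.14 and 10.93 to 7.87 and 8.84. Scn4b, an auxiliary subunit of voltage-gated sodium channels, went from 11.36 and 11.11 to 9.38 and 8.97 and changed by -2.06 (SE 0.08, adjusted p = 0.00137 from limma). Each of these groups was separated by more than its own spread, although Cox6a2 was higher on both arrays of experiment 2. Acy3, an aminoacylase (-2.01), Fam70a (-1.92) and Tmem121 (-1.88) fell, and a second probe of Tmem121 gave -1.90. Bivm fell by 1.61 and Serpinb1a, an inhibitor of neutrophil proteases, by 1.61. All 15 largest falls remained called when any 1 array was left out, with adjusted p-values of at most 0.0449.

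Rises were smaller, and most began from dim signals. Ptgs1, the cyclooxygenase COX-1 that makes prostaglandin H from arachidonic acid, rose from 6.12 and 5.77 to 7.80 and 7.53, a change of 1.72 (SE 0.08, adjusted p = 0.00188 from limma). Srxn1, the sulfiredoxin that repairs oxidized peroxiredoxins, had 6.90 and 5.99 with control and 8.68 and 7.30 with miR-26a. Its change was 1.54 (SE 0.21, adjusted p = 0.0117), and it did not pass without control replicate 1 (adjusted p = 0.0533). Fetub, a secreted protease inhibitor, rose from 6.07 and 5.71 to 7.24 and 7.22. Rgs18, which damps signals of G protein-coupled receptors, rose from 7.90 and 8.14 to 9.27 and 9.39, with a change of 1.31 (SE 0.07, adjusted p = 0.00235). Cr2, the complement receptor CD21 typical of mature B cells, rose from 8.17 and 8.34 to 9.34 and 9.54. Its second probe rose as well, by 0.91 (adjusted p = 0.00539). Both Emid2 probes rose, by 1.19 and 1.31, and so did both Emid1 probes, by 1.07 and 1.16. Further rises were those of Clec2i (1.30), the calcium-binding annexin Anxa4 (1.28), Zfp579 (1.25), Prkar2a (1.25), a regulatory subunit of protein kinase A, the metal-binding Mt1 (1.18), Apol10b (1.09) and Pecr (1.07). Of the 15 largest rises, 11 remained called without control replicate 1 and 14 without control replicate 2. The genes lost were Srxn1, Apol10b, Emid1 and Pecr without the first and Emid1 without the second.

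**Figure D3:**
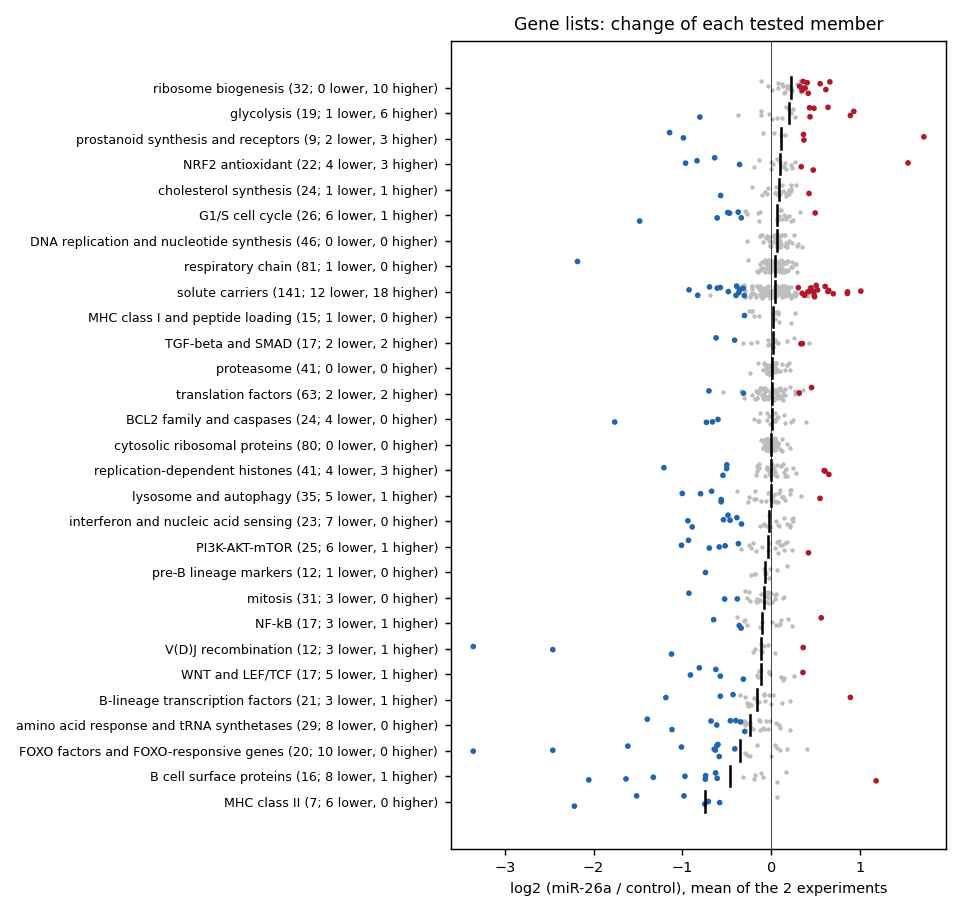
Each point is the change of 1 tested gene, as the mean log2 ratio of miR-26a to control over the 2 experiments, grouped by gene list and ordered by the median (black bar). Blue and red mark genes called lower and higher, grey those not called, and the brackets give the number tested and called, from 10 rises of 32 in ribosome biogenesis to 6 falls of 7 in MHC class II.

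Most measured transcripts of the MHC class II pathway were lower. Class II molecules carry peptides to helper T cells, and their genes share the coactivator Ciita and the factors of the RFX complex. Of 14 genes listed, 7 were tested, 6 were called lower and 0 higher (0 also at an unadjusted p under 0.05), with a median of -0.75. Over all genes 6.11% were lower and 5.93% higher. Among the chains, H2-Eb1 had 10.77 and 11.25 with control and 8.25 and 9.33 with miR-26a, a change of -2.22 (SE 0.15, adjusted p = 0.00303 from limma). H2-Ab1 was brighter, at 13.45 and 13.64 against 12.66 and 13.01, and fell by 0.71. Both groups were apart, and every class II chain was higher on the arrays of experiment 2. Of the molecules that load peptides, H2-DMa (-0.98), H2-Oa (-1.52) and H2-Ob (-0.75) fell. Of the RFX subunits, Rfxank fell by 0.58 while Rfxap, at 0.06, did not pass.

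Other class II genes were too dim on the miR-26a arrays for the filter, and their values are given here as chosen after they were seen. Cd74, the invariant chain, had 7.53 and 8.36 with control and 5.15 and 6.23 with miR-26a. H2-Aa had 6.46 and 6.93 against 3.59 and 5.43, where the value of experiment 1 was not above background. With a filter that asks for only 2 of the 4 arrays, the changes were -2.25 for Cd74, -2.18 for H2-Aa and -1.80 for H2-DMb1. A probe can pass that filter through its brighter group alone, so changes under it are given without a p-value. Ciita, the master regulator, had 4.67 and 5.15 with control and was not above background with miR-26a, at least 2.48-fold lower. Within the tested genes, 3 falls were called without control replicate 1 and 4 without control replicate 2. In contrast, among 15 genes of MHC class I and peptide loading 1 was called lower (6.67%, near the 6.11% of all genes). It was the peptide transporter Tap1, which fell by 0.31 (adjusted p = 0.0409 from limma), and the list median was 0.02.

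**Figure D4:**
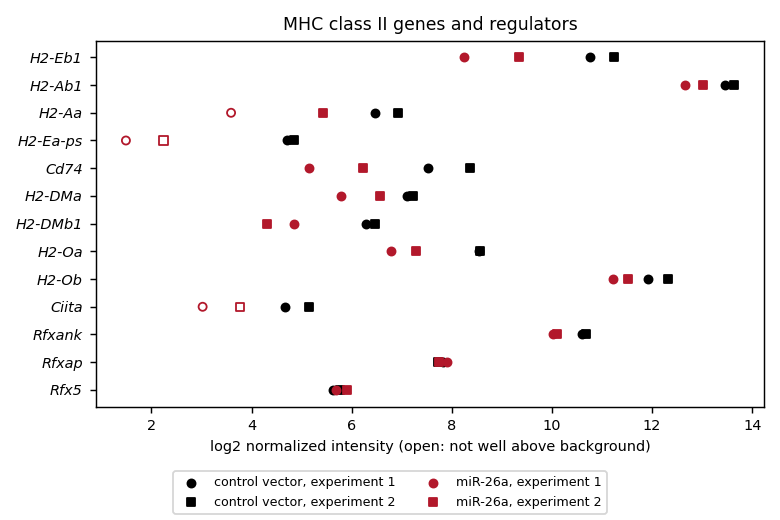
Log2 normalized intensity (horizontal axis) of the MHC class II genes and their regulators on the 4 arrays, with circles for experiment 1, squares for experiment 2, black for the control vector and red for miR-26a. Open symbols were not well above background, and all genes but Rfxap and Rfx5 lie lower with miR-26a in both experiments.

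Further surface proteins of B cells were lower. Of 16 tested, 8 fell and 1, Cr2, rose, against 6.11% and 5.93% of all genes. The list was chosen with earlier results of these data known, so this share is no separate evidence. Their median was -0.46, and it was -0.19 with no filter, when the dim members are counted too. Il10ra, the ligand-binding chain of the IL-10 receptor, went from 9.45 and 9.45 to 7.35 and 7.44, a change of -2.05 (SE 0.10, adjusted p = 0.00235 from limma). Slamf9, a receptor of the SLAM family, fell from 10.27 and 10.44 to 8.58 and 8.85. Bst1 (CD157), an ectoenzyme that marks early B cells, had 11.98 and 11.99 with control and 10.63 and 10.69 with miR-26a. All groups were separate. Tnfrsf13c, the receptor for the survival factor BAFF, fell by 0.97, Cd38 by 0.74, Slamf6 by 0.63 and Cd52 by 0.61. With control replicate 1 or 2 left out, 4 falls of the list were called each time. Receptors that direct lymphocyte traffic were mostly too dim. Klf2, a transcription factor for several of them, fell from 10.20 and 10.28 to 9.47 and 9.73, a change of -0.64 (adjusted p = 0.00975), and did not pass with control replicate 1 or 2 left out. Ccr7, the receptor that leads lymphocytes to lymph nodes, had 7.26 and 7.06 with control against 4.59 and 4.73 with miR-26a. It fell by 2.50 under the filter on 2 arrays, and S1pr1, an exit receptor, by 0.95 there. Such probes can enter through the brighter group alone, so these 2 falls were not tested.

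Many of the FOXO-responsive genes were lower. Of 20 tested, 10 fell and 0 rose (2 at an unadjusted p under 0.05), beside 6.11% and 5.93% of all genes. The median was -0.35, with -0.40 in experiment 1 and -0.48 in experiment 2. Rag1, Rag2 and Klf2 are on this list too. Trp53inp1, a nuclear protein of the p53 stress response, fell from 12.52 and 12.73 to 10.75 and 11.27, a change of -1.61 (SE 0.10, adjusted p = 0.00235 from limma), and its second probe fell by 1.22. Irs2, the adaptor that links insulin-type receptors to PI3K, had 10.15 and 10.41 with control and 9.22 and 9.32 with miR-26a. Ccng2, a cyclin linked to arrest, fell by 0.63. Values of the factors themselves did not pass, at -0.16 for Foxo1 and 0.10 for Foxo3. Txnip, which restrains glucose uptake, lay the other way, at 0.40 for the brighter probe, which did not pass (adjusted p = 0.0657), and at 0.45 for a second probe, which did (adjusted p = 0.0458). There were 3 falls called with control replicate 1 or 2 left out, and 11 and 9 without miR-26a replicates 1 and 2.

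The PI3K cascade itself held 6 falls (24.0%) and 1 rise (4.0%) among 25 genes tested, with a median of -0.03. Over all genes these shares were 6.11% and 5.93%. Gab1, a scaffold that recruits PI3K, fell from 7.37 and 7.52 to 6.47 and 6.56, a change of -0.93 (SE 0.07). Pik3r6 (-0.70) and Pik3r5 (-0.52), regulatory subunits of the gamma kinase, fell, and so did Pik3ip1 (-0.58), an inhibitor of the kinase. Irs2 fell by 1.01. Activators and an inhibitor of the kinase were thus among the falls. With control replicate 1 or 2 left out, 1 fall was called. In the IL-7 receptor list of 10 genes, the 3 called were suppressors of cytokine signalling, and all fell. Socs3 had 8.23 and 8.18 with control and 7.59 and 7.43 with miR-26a (change -0.69, adjusted p = 0.00668), Socs2 fell by 0.53 and Socs1 by 0.38. Of these 3 falls, 0 passed with control replicate 1 or 2 left out. The receptor chain Il7r (0.18) and the kinase Jak1 (0.07) did not pass.

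Several genes of the G1/S step of the cell cycle fell. Skp2, the subunit that brings the inhibitor p27 to its ubiquitin ligase, went from 11.38 and 11.32 to 9.81 and 9.93, a change of -1.48 (SE 0.09, adjusted p = 0.00235 from limma). Of 26 genes of this step, 6 fell (23.1%) and 1 rose (3.85%), beside 6.11% and 5.93% of all genes. Cyclin E1 (Ccne1) fell by 0.61, E2f7 by 0.49, E2f2 by 0.47 and Cdk2 by 0.37, whereas E2f1 rose by 0.50 (adjusted p = 0.0147). Second probes of Ccne1 (-0.39) and E2f7 (-0.115) did not pass. The median of the list was 0.07, so most members lay on the other side of 0. Skp2 alone was called without control replicate 1 or 2. Of 31 mitosis genes, 3 fell (9.68%, beside 6.11% of all genes, and 1 with control replicate 1 or 2 left out), led by Chfr, a checkpoint ubiquitin ligase, from 12.95 and 12.97 to 12.01 and 12.06. Of 46 genes of DNA replication and nucleotide synthesis 0 were called by limma, with 1 lower and 8 higher at an unadjusted p under 0.05.

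Several genes that promote cell death fell. Of 24 genes of the BCL2 family and the caspases 4 were lower (16.7%, beside 6.11% of all genes), although the median was 0.01. Called higher were 0 (5.93% of all genes), with 3 higher at an unadjusted p under 0.05. Bmf, a BH3-only protein that binds and blocks BCL2 proteins, fell from 9.88 and 10.33 to 7.99 and 8.69, a change of -1.76 (SE 0.10, adjusted p = 0.00235 from limma). Bak1, a pore former of the mitochondrial membrane, went from 13.14 and 13.12 to 12.40 and 12.41. Bok, a relative of Bak1, fell by 0.66 and Bbc3 (PUMA), another BH3-only protein, by 0.60. Other death-promoting genes, such as Bcl2l11 (0.05), Bad (0.07) and Diablo (0.04), did not pass, nor did the survival genes Mcl1 (-0.20) and Bcl2l1 (-0.15). Of the 4 falls, 1 was called without control replicate 1 and 2 without control replicate 2.

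Ribosome biogenesis was the clearest raised group. Its genes make and process ribosomal RNA in the nucleolus, and 10 of 32 rose and 0 fell (0 at an unadjusted p under 0.05 and 18 higher), beside 5.93% of all genes. The median change was 0.22, with 0.24 in each experiment, and 30 of the 32 values were above 0. Polr1b, the second largest subunit of RNA polymerase I, had 9.78 and 9.30 with control and 10.38 and 10.02 with miR-26a, a change of 0.66 (SE 0.07, adjusted p = 0.00645 from limma). Rrp12, needed for export of ribosomal subunits, rose from 7.84 and 7.83 to 8.40 and 8.51. Rrp1b rose by 0.55, and the stem cell protein Gnl3 by 0.42. The processing factor Pes1 rose by 0.41, though its second probe, at 0.21, did not pass, and the pseudouridine synthase Dkc1 rose by 0.38. For these genes except Rrp12 the arrays of experiment 2 were dimmer in both groups. The changes were small, and 0 genes of the list were called with control replicate 1 or 2 left out, 5 without miR-26a replicate 1 and 2 without miR-26a replicate 2, while its median lay between 0.20 and 0.28 over the alternatives run. Among 80 cytosolic ribosomal proteins, by contrast, 0 were called by limma, 1 was higher and 0 lower at an unadjusted p under 0.05, and the median was 0.00.

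Several glycolysis genes rose as well. Of 19 genes tested, 6 rose (31.6%) and 1 fell (5.26%), beside 5.93% and 6.11% of all genes, and the median was 0.20. Hk2, an inducible hexokinase that traps glucose in the cell, went from 7.88 and 7.41 to 8.73 and 8.43, a change of 0.93 (SE 0.17, adjusted p = 0.0274 from limma). Pfkl, the liver-type phosphofructokinase, rose from 9.41 and 9.42 to 10.38 and 10.22 (adjusted p = 0.00504). Pdk1, which holds pyruvate back from the mitochondrion, rose by 0.64, Tpi1 by 0.48, the glucose transporter Slc2a1 by 0.44 and Pgam1 by 0.43. Pfkfb3, which makes the activator of phosphofructokinase, was the exception and fell from 12.37 and 12.39 to 11.59 and 11.57. There were 0 rises called without control replicate 1 and 1 without control replicate 2. The respiratory chain, with 81 genes tested, had 1 call, Cox6a2, and a median of 0.05. Solute carriers, the transporters of small molecules, had 18 rises (12.8%) and 12 falls (8.51%) among 141 tested, beside 5.93% and 6.11% of all genes, so the share of falls was near that of all genes. The sodium-coupled carriers Slc5a9 (1.01), Slc5a11 (0.86) and the vitamin transporter Slc5a6 (0.86) rose, and the glycine carrier Slc6a9 fell by 0.93. This list had 1 rise and 1 fall called without control replicate 1, and 3 and 1 without control replicate 2.

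**Figure D5:**
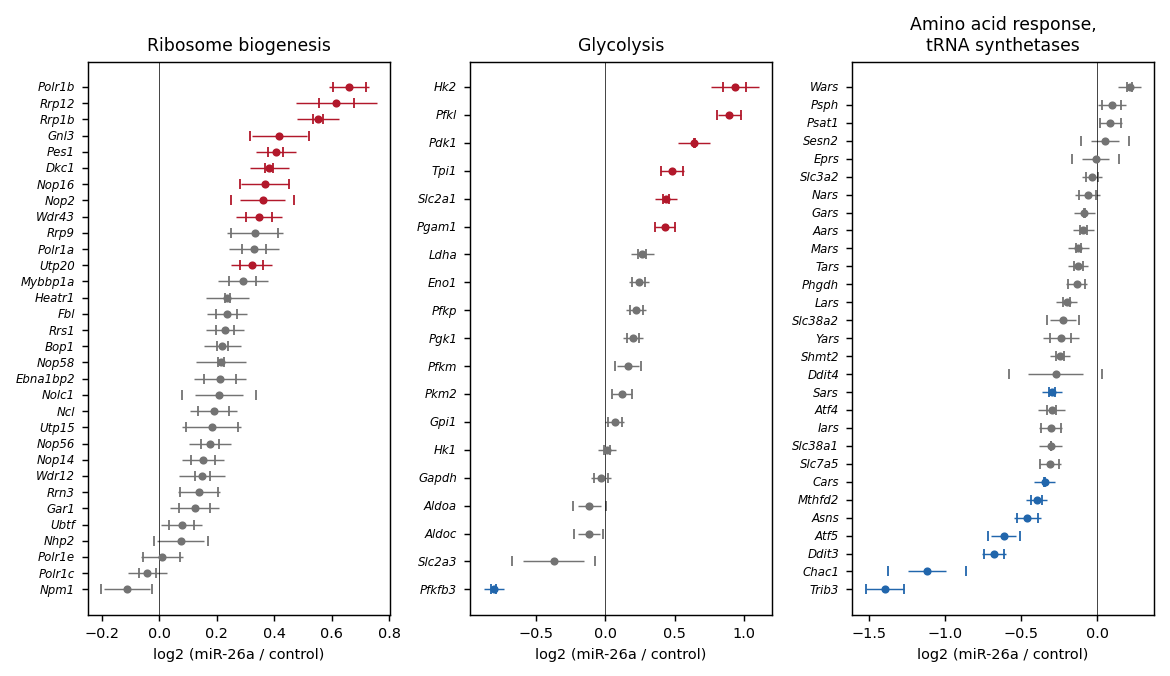
Change of each tested gene of 3 lists, as log2 ratio of miR-26a to control (points, with the standard error of the limma fit as bars and the 2 experiments as ticks). Red and blue mark genes called higher and lower, and ribosome biogenesis lies to the right of 0 for 30 of 32 genes, whereas the amino acid response lies to the left for 25 of 29.

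Part of the amino acid response fell. Cells short of amino acids, or with unfolded proteins, make the factor ATF4, which turns on genes for amino acid synthesis and transport. Of 29 tested genes of this response, with tRNA synthetases, 8 fell (27.6%) and 0 rose (1 at an unadjusted p under 0.05). Over all genes 6.11% fell and 5.93% rose, and the median of the list was -0.24. Trib3, a pseudokinase induced by this response, had 9.73 and 9.91 with control and 8.21 and 8.64 with miR-26a, a change of -1.40 (SE 0.13, adjusted p = 0.00504 from limma). Chac1, which degrades glutathione, went from 11.80 and 12.45 to 10.42 and 11.59. Both groups were brighter in experiment 2, and they did not overlap. Ddit3 (CHOP) fell by 0.68, Atf5 by 0.61, asparagine synthetase Asns by 0.46 and Mthfd2, an enzyme of mitochondrial folate metabolism, by 0.40. The probes of Atf4 itself differed: the brighter one did not pass, at -0.30 (adjusted p = 0.0889), and the other was called lower, at -0.51 (adjusted p = 0.0119). The arginine carrier Slc7a3, let in by the filter on 2 arrays and so not tested, went from 6.87 and 7.28 to 5.05 and 5.35. There were 2 falls called without control replicate 1 and 3 without control replicate 2, while 6 and 4 were called without miR-26a replicates 1 and 2. The ER unfolded protein response held 2 falls (8.7%) and 1 rise (4.35%) among 23 genes, near the shares of all genes. The oxidases Ero1lb (-1.12) and Ero1l (0.50) among them changed in opposite directions.

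Promoter sequences of these groups were read for short words, as a description of the sequence. Each RefSeq promoter (GRCm38.p6) covers 250 bases before and 50 after a start site, and both strands were searched. The word TGATGNAA, bound by ATF4 with its partners, stood in 8 of 25 promoters of the tested genes of the amino acid response (32.0%) and in 3.97% of all 32851 promoters. The E-box CACGTG, bound by factors of the MYC and USF type, stood in 6 of 35 promoters of the ribosome biogenesis genes (17.1%) and in 7.15% of all promoters. The FOXO word TGTTTAC stood in 4 of 23 promoters of the FOXO list (17.4%) and in 3.65% of all, but in 1 of 10 promoters of the FOXO genes called. For glycolysis, CACGTG stood in 3 of 31 promoters (9.68%), near the share of all promoters. A word in this window does not show that a factor binds there. Examples are printed with the word in capitals, on the strand of the gene, the first pair from genes that fell, the next from the FOXO list and the last from a gene that rose.
Chac1, chr2:119351019-119351086, plus strand: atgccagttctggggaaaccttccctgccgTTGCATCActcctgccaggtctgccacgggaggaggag
Asns, chr6:7693195-7693262, minus strand: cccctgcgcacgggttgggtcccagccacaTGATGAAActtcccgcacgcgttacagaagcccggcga
Bbc3, chr7:16310064-16310130, plus strand: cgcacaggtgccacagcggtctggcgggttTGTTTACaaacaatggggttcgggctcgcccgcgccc
Nop2, chr6:125131793-125131858, plus strand: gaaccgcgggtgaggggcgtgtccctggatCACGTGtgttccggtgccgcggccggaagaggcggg
Nop2, a methyltransferase of ribosomal RNA, rose by 0.36 (adjusted p = 0.0439 from limma), and its word begins 60 bases before the start.

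Redox and lipid mediator genes moved in both directions. Among 22 NRF2-type antioxidant genes tested, 3 rose, Srxn1, glutathione reductase Gsr (0.47) and Nfe2l2 (0.34), which encodes NRF2. The glutathione transferases Mgst1 (-0.96), Gstm1 (-0.84) and Mgst2 (-0.64) fell, as did catalase (Cat, -0.36). Of 9 genes of prostanoid synthesis and reception, 3 rose and 2 fell. Beside Ptgs1, Ptges2 rose by 0.37 and Pla2g4a, which frees arachidonic acid, by 0.36. The thromboxane receptor Tbxa2r fell from 7.86 and 7.76 to 6.95 and 6.70, and Alox5ap, the helper of leukotriene synthesis, by 1.14. The members of each list thus differed in direction. The NRF2-type list had 13.6% rises and 18.2% falls and the prostanoid list 33.3% and 22.2%, beside 5.93% and 6.11% of all genes. With control replicate 1 left out, the NRF2-type list had 0 calls and the prostanoid list 1 rise and 1 fall.

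In most of the lists that follow, called falls outnumbered called rises, beside 6.11% falls and 5.93% rises over all genes. Several medians were near 0, such as -0.03 for interferon, -0.0004 for lysosome, -0.01 for MAP kinases and 0.0004 for histones. Those of WNT (-0.12), the transcription factors (-0.15) and NF-kB (-0.10) were lower. Of 23 interferon and nucleic acid sensing genes, 7 fell and 0 rose (5 at an unadjusted p under 0.05), led by Pyhin1, from 10.97 and 10.97 to 9.92 and 10.15, and Tmem173 (STING, the adaptor of DNA sensing), from 12.19 and 12.18 to 11.32 and 11.27. The sensors Oas1a and Ifih1, too dim for the filter and so not tested, went the other way. Under the filter on 2 arrays Oas1a rose from 4.91 and 4.80 to 6.91 and 6.36 and Ifih1 by 0.94. Of 35 lysosome and autophagy genes, 5 fell and 1 rose, with falls of Atp6v0e, a proton pump subunit, from 14.31 and 14.29 to 13.31 and 13.28, and of the galactosidase Glb1 (-0.80), and a rise of Gabarapl1 (0.55), which acts in autophagosome formation. In WNT and LEF/TCF signalling, 5 of 17 fell and 1 rose, with Frat1 at -0.91 and Lef1 at -0.57. Among 21 B-lineage transcription factors, 3 fell and 1 rose. The gene that rose was Id2, an inhibitor of E proteins, from 9.45 and 9.51 to 10.14 and 10.60, and Bach2 fell by 0.43. Among 24 genes of Polycomb and DNA methylation, 3 fell, Ezh2 (-0.50), the H3K27 methyltransferase, Jarid2 (-0.43) and Mbd4 (-0.42). Of 41 histone genes 4 fell and 3 rose. For 41 proteasome subunits 0 were called by limma, with 1 lower and 1 higher at an unadjusted p under 0.05. The NF-kB list had 3 falls and 1 rise among 17 genes, the TGF-beta list 2 and 2 among 17, the MAP kinase list 3 and 1 among 30 and the calcium list 2 and 0 among 21. In the pre-B cell receptor list, Fyn (-0.64) and Blnk (-0.50) fell among 16. The line comes from marrow lacking SLP-65, the product of Blnk, so the latter is a change of probe signal only. With control replicate 1 left out, 1 fall was called in each of the interferon, lysosome, WNT, transcription factor and histone lists, with 1 rise in the histone list. The Polycomb, NF-kB, TGF-beta, MAP kinase, calcium and pre-B cell receptor lists then had 0 calls.

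The shared seed was looked for in the probes themselves, which are 60 bases of a transcript and so cover little of it. The word TACTTGA, which pairs with bases 2 to 8, stood in 85 tested probes, of which 20 were lower (23.5%) and 2 higher (2.35%), with a median of -0.14. Over all tested probes these shares were 5.38% and 5.26%. For the word ACTTGAA, 28 of 146 were lower and 3 higher. The 29-base stretches below are from probes of genes that fell by the largest amounts, with the word in capitals and positions of the probe on mm9, the build of the array design.
Adam19, chr11:45960740-45960799, plus strand: tctatgcaaaaTACTTGAatgggccatgg
Gmds, chr13:31911535-31911594, minus strand: tttgaatcacatactcatttTACTTGAaa
Llph, chr10:119669028-119669087, plus strand: tcttaccagtagtactTACTTGAagtgtt
Mex3b, chr7:90019806-90019865, plus strand: gtaggtgacgtTACTTGAgcttaaatgta
Hmga1, chr17:27700543-27700602, plus strand: ttatttgcagtTACTTGAataaaaaacaa
Adam19, a membrane metalloprotease, went from 9.59 and 9.99 to 8.16 and 9.06 and changed by -1.18 (SE 0.12, adjusted p = 0.00645 from limma). Gmds, an enzyme of GDP-fucose synthesis, fell from 12.74 and 12.51 to 11.71 and 11.43. Hmga1, an architectural DNA-binding protein, was the brightest of them, with 16.73 and 16.80 against 16.04 and 16.10. The word is also present in probes that did not change, and none of these sites was tested for pairing.

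Some probes were above background in only one group. Of the 55681 probes on the array, 235 were above background on both control arrays and on neither miR-26a array, and 176 the other way round. For a gene with no probe above background in the dim group, the fold is a lower bound, set against the lowest signal among probes above background on each array or the probe's own signal where higher. Igfbp4, which binds insulin-like growth factors, was at least 4.62-fold lower, with 5.82 and 5.72 under control. Amica1, an adhesion molecule of leukocytes, was at least 4.07-fold lower and the adaptor Grb7 at least 3.00-fold. The largest bounds upward were those of Batf, an AP-1 type factor of lymphocytes, at least 5.21-fold higher, and Rab3il1, at least 4.69-fold. Dusp9, a phosphatase of MAP kinases, was at least 2.76-fold higher. The filter itself was passed by 439 probes on both control arrays but not both miR-26a arrays, and by 311 the other way round.

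For comparison, the cells with the miR-26 sponge share the control arrays. In the sponge contrast, 7 probes (0.0358%) were called in either direction, and between miR-26a and sponge 3506 (17.9%). The 15 largest falls and 15 largest rises were chosen on the same miR-26a arrays, so their distance from the sponge is no separate evidence. With the sponge itself, 0 of them were called by limma, and the smallest adjusted p was 0.195. Rag2 had 9.32 and 9.60 on the sponge arrays, against 6.05 and 5.95 with miR-26a. Skp2 changed by 0.30 with the sponge and differed from miR-26a (adjusted p = 0.00122). Polr1b changed by 0.17 with the sponge, against 0.66 with miR-26a (adjusted p of the difference 0.00994), while for Hk2 the values were 0.49 and 0.93 and the difference did not pass (adjusted p = 0.129).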

How the data were processed

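Total RNA of IL-7-cultured pre-B cells was labelled by the authors' service laboratory and hybridized to single-colour Agilent 60-base arrays on 1 slide. Per the labels and methods, Agilent Feature Extraction gave each spot's intensity, background-subtracted as the processed signal. The authors also deposited a table of quantile-normalized values. It is linear intensity: its columns share a median of 12.29 and correlate with the scanner signals at 0.999865 or more on the log2 scale. Here log2 of that table was used, without offset. Probes were kept when well above background with a processed signal above 50 on the control and miR-26a arrays. limma 3.58.1 (R 4.3.3) modelled the 6 arrays by group with experiment as block (residual df 2, prior df 3.89), with Benjamini-Hochberg adjustment over the 19558 probes, two-sided.

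The experiment is the replicate number. Deviations from group means correlated at 0.41 between equal-numbered control and miR-26a arrays. The sponge arrays gave 0.59 against control and 0.47 against miR-26a. The methods normalize to the control of each experiment, and experiment coincides with slide row, as group does with slide column, so neither can be told apart from its position. Gene names and mm9 positions are those of the array design. Names were matched to RefSeq symbols (GRCm38.p6), 1455 of the tested probes through a synonym, and 5197 matched none. Each gene is given by its brightest tested probe. Of 327 called genes with several, all probes had the same sign for 309. Named were the 15 largest falls and rises and called members of each list, up to 6 by size, with further members for context and others said to be chosen after their values were seen. Members and lists were chosen with earlier results of these data known, and lists share genes. Alternatives covered the block, arrays fitted, normalization, background, filters, the test and each array left out. Tables and plots used numpy 2.4.6, pandas 2.3.3 and matplotlib 3.10.9. Some genes are not reported here.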

Additional observations from a re-analysis of the deposited data

How the results depend on the processing

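The counts of 1052 lower and 1028 higher probes depended on the design. Without the replicate block, 226 were lower and 81 higher, all of them among the main calls, and of the 15 largest falls and rises 12 and 6 passed. Leaving out 1 array gave 125 to 907 lower and 67 to 735 higher probes, the lowest without control replicate 1. Without miR-26a replicate 2, 554 were higher. With no filter, 0 were lower and 0 higher, with the smallest adjusted p at 0.229. With the 2 log ratios against 0, 0 were lower and 0 higher (smallest adjusted p 0.0506, and 1041 and 1277 at an unadjusted p under 0.05), and with the methods' t-test, unpaired, 0 and 0 (smallest adjusted p 0.18, and 1293 and 1336 unadjusted). All main calls kept their sign wherever they were fitted. The change of a probe is the same number without the block, with the 4 arrays alone, the log ratios, the t-test and any filter. Only another normalization or background, or a left-out array, could alter a sign, or a list median over the same probes. Scaling to the 75th percentile (946 and 1033), normexp background (1161 and 1082), quantile normalization of the scanner signals (1045 and 996), the 4 arrays alone (833 and 755), the filter on 2 of 4 arrays (1016 and 894) and a signal above 200 (1152 and 1168) moved each count by less than 1.5 times. Of 196 called genes of the lists and the largest changes, 194 passed with quantile-normalized scanner signals, 176 with the 75th percentile, 161 with the 4 arrays alone, 136 and 130 without miR-26a replicates 1 and 2, 57 and 46 without control replicates 2 and 1, 55 without the block, and 0 with no filter, the log ratios or the t-test. The list medians kept their sign for MHC class II (-1.25, with no filter and so with the dim genes, to -0.69), B cell surface proteins (-0.53 to -0.19), FOXO (-0.47 to -0.29), the amino acid response (-0.26 to -0.16), ribosome biogenesis (0.20 to 0.28) and glycolysis (0.18 to 0.23). Dim probes limit what could be tested.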
